A study of Mus musculus with 52 samples.

Results

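The cytosolic and mitochondrial heat shock proteins described here are 10 mouse genes, Hspa1a, Hspa1b, Hspa8, Hsp90aa1, Hsp90ab1, Dnajb1, Hsph1, Hspd1, Hspe1 and Hspb1, chosen by name from the 24421 gene symbols of the count tables. All 10 were found in each of the 52 libraries and all 10 passed the filter on low counts in every comparison. The cells were Cilia-APEX-IMCD3, an epithelial line of the mouse inner medullary collecting duct that forms primary cilia. The study used a cytosine base editor, BE4-Gam, to introduce homozygous missense changes into Wdr34 or Wdr60, which encode intermediate chains of the dynein-2 motor that returns cargo from the tip of the cilium. Edited cells were sorted as single cells, so each line is 1 clone, and each clone was sequenced as 4 technical replicate libraries.

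The ciliated set held 28 libraries, from the control clones D8, H12, A4 and G7 and the mutant clones Wdr34 clone 1, Wdr34 clone 3 and Wdr60. The non-ciliated set held 24 libraries, from the control clones AB, Co1, Co2 and Co3 and a Wdr34 and a Wdr60 mutant clone. By the study's methods, control cells had received BE4-Gam and the guide plasmid without a target oligo. The labels do not state this for single clones, and the titles of the AB libraries lack the BE that begins those of the other non-ciliated clones. The study gives p.Ala911Val for its Wdr60 mutant and p.Arg183Trp and p.Gly394Ser for its Wdr34 mutants. It reports that the p.Gly394Ser clone also carries an unintended heterozygous missense change in Wdr34, and the Wdr60 clone a heterozygous synonymous one. The labels tie no allele to a clone, so Wdr34 clones 1 and 3 keep their numbers as names, and the non-ciliated Wdr34 clone is taken to be p.Arg183Trp only because the study left the other allele out of that set. The labels give 10% serum for all libraries, whereas the methods state that ciliation was induced by serum starvation. The labels name 8 control clones, 4 in each set and none in both, whereas the methods speak of 4 control clones in all, so that clones of the 2 sets may be the same under other names. The study states that it set its ciliated mutants against 3 control clones, whereas all 4 labelled ciliated controls are used here. As the study describes 1 mutant clone per allele, the Wdr60 libraries of the 2 states come from 1 clone by its account, and the non-ciliated Wdr34 clone would be Wdr34 clone 1 or 3. The 13 sets of 4 libraries are called clones below, counted as the labels name them, and clones of the 2 states are not certain to be independent. Cilium, serum and time of sequencing cannot be told apart between the states, and in the control clones neither can the clone.

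Heat shock proteins are molecular chaperones. HSP70 proteins bind exposed hydrophobic stretches of unfolded chains in cycles of ATP binding and hydrolysis, J-domain proteins deliver the chains and stimulate hydrolysis, and HSP110 proteins exchange the nucleotide. HSP90 takes over late folding steps of kinases and steroid receptors, HSP60 with HSP10 folds proteins inside the mitochondrial matrix, and small heat shock proteins hold unfolded chains without using ATP. Under stress the transcription factor HSF1 binds heat shock elements, inverted repeats of GAA and TTC units, in many of these genes, while Hspa8 and Hsp90ab1 are known as the members made at a high level without stress. Cells of the inner medulla live at high and changing osmolality, and HSP70 induction is a known part of their adaptation.

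The libraries held between 14816218 and 28084979 assigned counts, of which the 10 genes took 0.339% to 1.19%. The libraries of a clone were technical replicates, and for most of the 10 genes clones differed more than libraries of a clone did. P-values from libraries count each library as a sample of its own, and clone means are therefore set beside them. 4 libraries differed from every other library of their clone by more than 20 times the counting variance, namely library 1 of AB, library 1 of A4, library 4 of G7 and library 1 of the non-ciliated Wdr60 clone, and the counts of the 10 genes called between states and in the mutants of either state were repeated without them. In the ciliated Wdr60 clone, libraries 1 and 2 differed from libraries 3 and 4 (Hspa1b 19.8, 17.0, 31.4 and 26.0 CPM in libraries 1 to 4), so that no single library of it stood alone. Of 12 markers of collecting duct epithelium, 9 or 10 reached 1 CPM in each group of clones, and their sum ranged from 1090 to 4791 CPM. The water channel gene Aqp2 was at 0 in 3 of the 4 groups. The 4 endothelial markers summed to at most 0.186 CPM and the 4 leukocyte markers to at most 5.45 CPM, and the 7 fibroblast markers reached 31.7 CPM in a ciliated mutant clone and at most 5.57 CPM in the other groups. Their part in the results was not tested.

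Levels are given in CPM, the counts of a gene per 1000000 counts of its library, scaled by the trimmed mean of M-values jointly over the 52 libraries, and as CPM per kilobase of exon where genes are compared with each other. Hsp90ab1, the constitutive cytosolic HSP90, was the most abundant of the 10 per kilobase in each of the 4 groups of clones, at 1818 ± 299.99 CPM per kilobase in non-ciliated controls (SD, n = 4 clones) and 1059 ± 331 in ciliated controls. Hspb1, the small heat shock protein HSP25, was next in all 4 groups, at 546 ± 159 and 306 ± 174 CPM per kilobase in the same groups. Hspa1a, an inducible HSP70, was the lowest in all 4 groups, at 0.661 ± 0.221 and 0.871 ± 0.526 CPM per kilobase. Between these, the order of mean levels per kilobase in non-ciliated controls was Hsp90aa1, Hspd1, Hspa8, Hspe1, Hsph1, Dnajb1 and Hspa1b, where Hspe1 (61.5 ± 19.8) and Hsph1 (60.3 ± 12.6), and Hspd1 (292 ± 111) and Hspa8 (254 ± 58.2), lay within their SD of each other. In ciliated controls the order was Hsp90aa1, Hspa8, Hspd1, Dnajb1, Hspe1, Hspa1b and Hsph1, and Hsph1 had moved to the last place but one, with 13.2 ± 6.46 CPM per kilobase beside 19.0 ± 5.63 for Hspa1b. The order depends on the length used, all annotated exons of a gene together, which is 7266 bases for Hsph1 and 1031 to 4301 for the others. In CPM without length, Hsph1 (95.7 ± 46.9) lay above Hspa1b (53.2 ± 15.8) and Hspe1 (31.1 ± 6.95) in ciliated controls. The 10 genes spanned 2.89-fold (Hspa1b) to 9.25-fold (Hsph1) between their lowest and highest clone means, except Dnajb1, which spanned 1.72-fold.

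**Figure D1:**
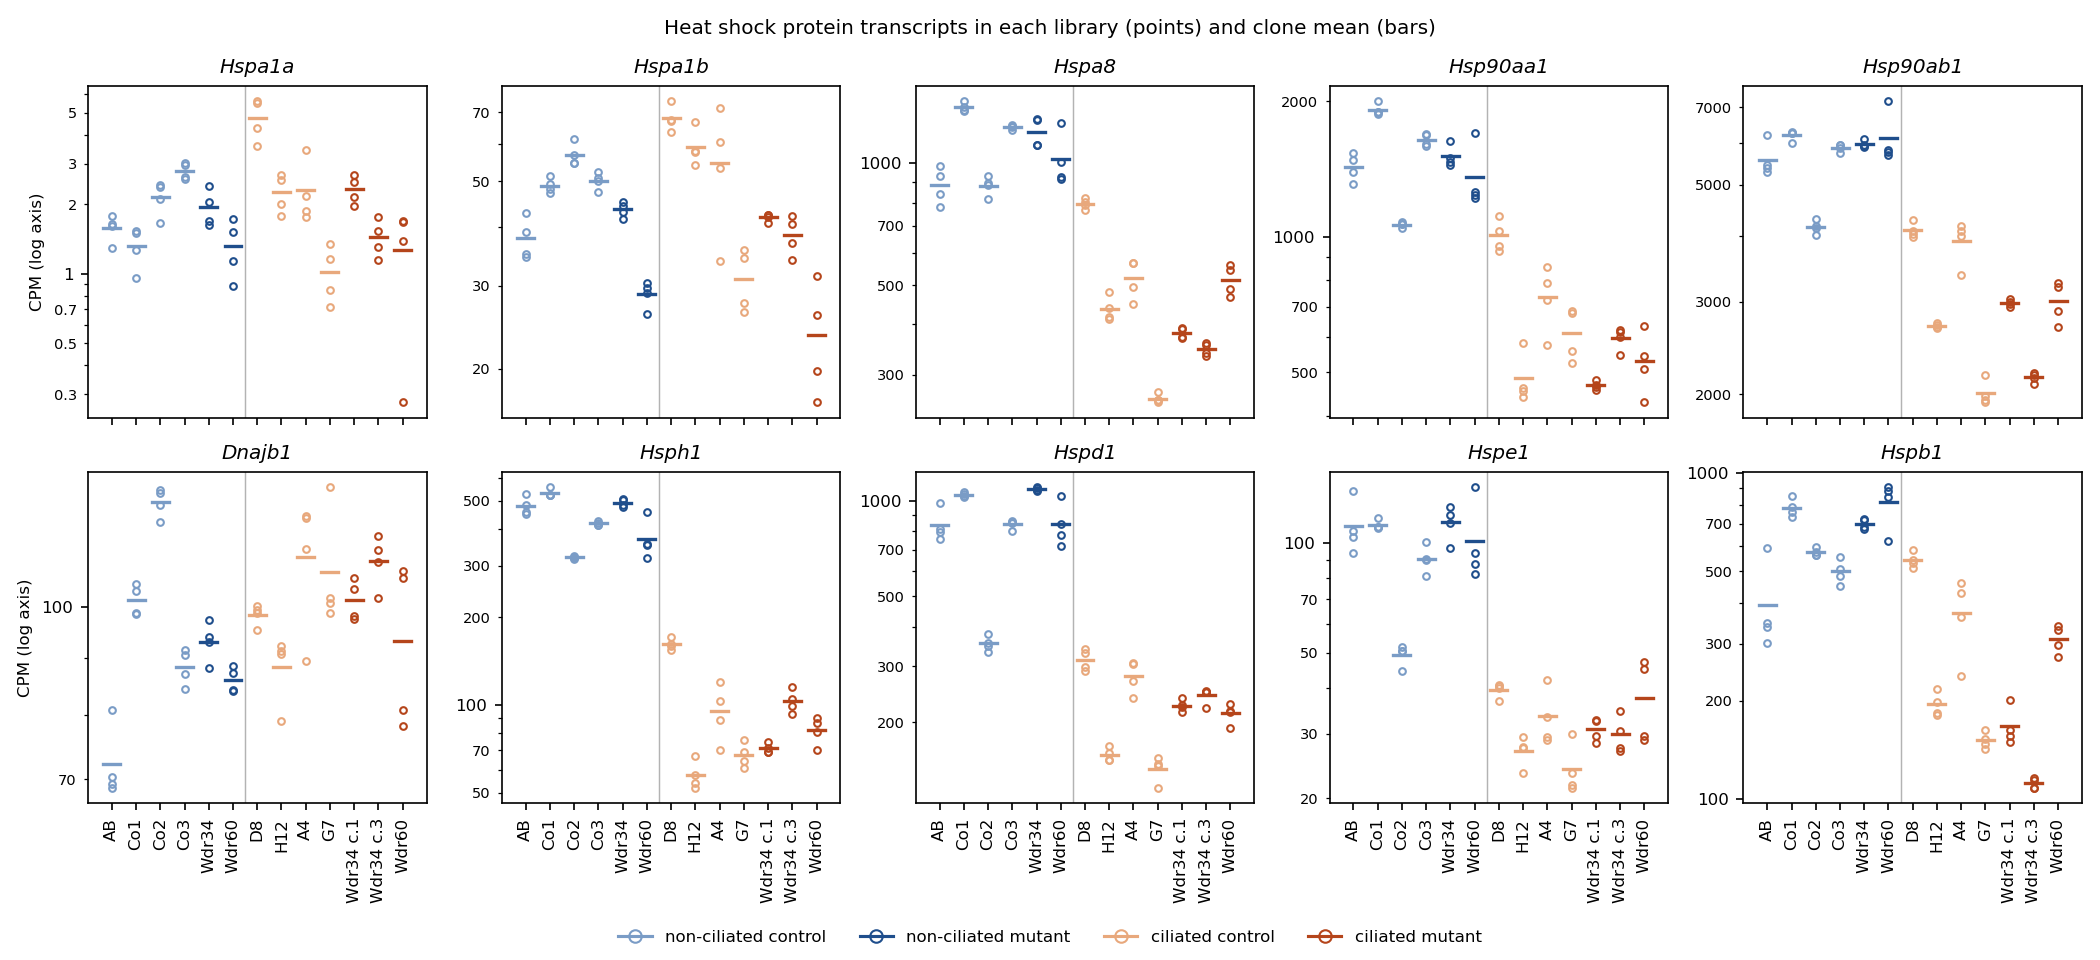
CPM on a log axis for the 10 genes in each of the 52 libraries (points) with the mean of each clone (bars), the non-ciliated clones left and the ciliated clones right of the grey line. Hsph1 ran from 320.2 to 532 CPM in non-ciliated control clones and from 57.6 to 162 CPM in ciliated ones, while Dnajb1 lay between 72.2 and 124 CPM in all 13 clones.

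The first comparison asks how the 10 genes differ between ciliated and non-ciliated control clones. Hsph1, Hspd1, Hspe1, Hspa8, Hsp90aa1, Hspb1 and Hsp90ab1 were lower in ciliated controls, by 1.71-fold to 4.57-fold, and Hspa1a, Hspa1b and Dnajb1 did not pass the test. Thus 7 of 10 genes were lower and 0 higher (edgeR quasi-likelihood test, Benjamini-Hochberg adjusted p below 0.05), where 29.7% of the 11856 genes tested were lower and 31.2% higher. The median log2 fold change was -0.96 over the 10 genes and 0.02 over all genes tested. The clone means of 6 of the 10 genes did not overlap between the states, all 6 lower in ciliated cells, as did 12.5% of all genes in that direction and 10.7% in the other. Each of the 6 had an exact 2-sided permutation p of 0.0286, the smallest that 70 splits of 4 against 4 clones allow, which becomes 0.123 after adjustment over all genes, so that no gene could pass at this number of clones. With the libraries of each clone summed to 1 sample, Hsp90aa1, Hsph1, Hspd1 and Hspe1 stayed below an adjusted p of 0.05 as lower, where 962 of all 13119 genes did, and Hspa8, Hsp90ab1 and Hspb1 had 0.0532, 0.0704 and 0.191. In Wdr60, which by the study's account is 1 clone in both states, all 7 genes were also at a lower mean in ciliated cells, for example Hsph1 at 82.1 ± 8.72 against 371 ± 60.96 CPM and Hspd1 at 213 ± 15.3 against 845 ± 139 CPM (SD of 4 libraries, no test). There, Hspa1a (1.26 against 1.32 CPM) and Hspa1b (23.5 against 28.8 CPM) also had lower means in ciliated cells, and Dnajb1 a higher one (93.2 against 85.9 CPM). The share of all genes with a lower mean in ciliated Wdr60 cells was not determined, so that these counts have no background. Serum and time of sequencing differ between these libraries as they do between the controls. In bulk RNA, fewer cells of a kind and less RNA per cell cannot be told apart.

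**Figure D2:**
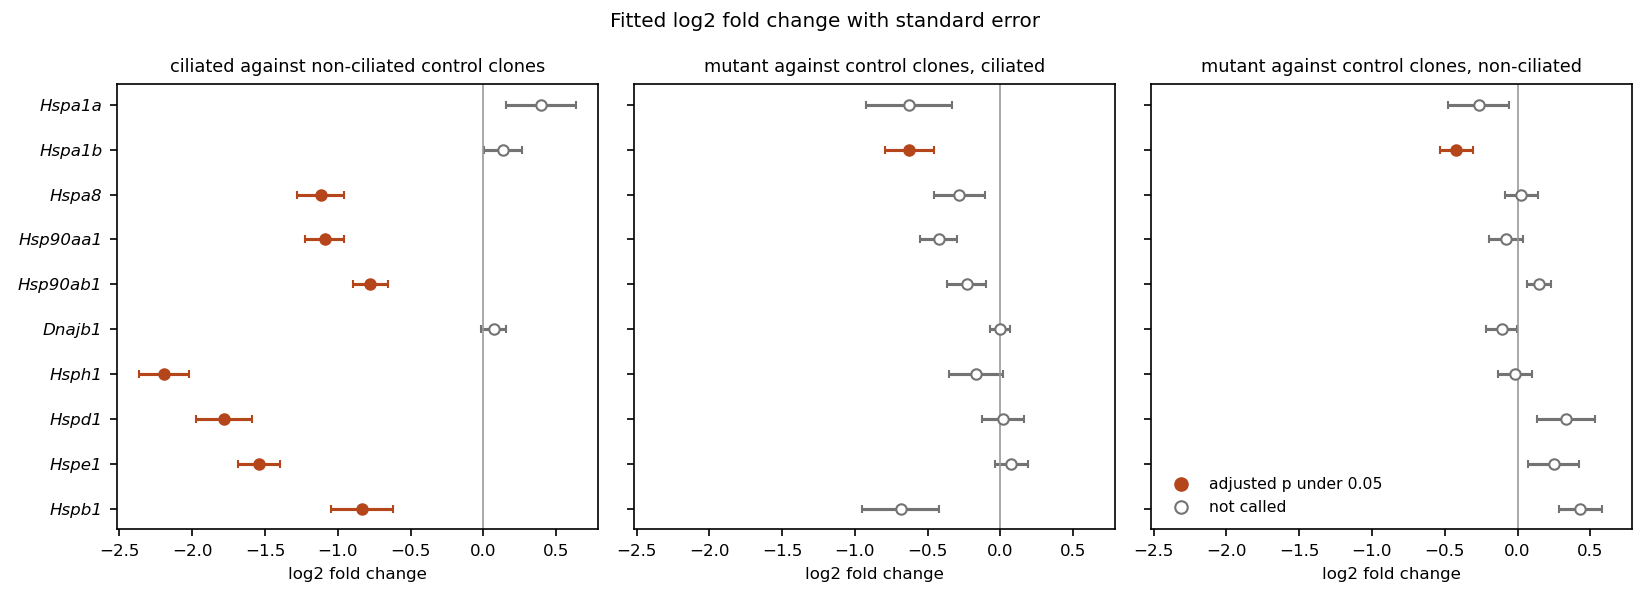
Fitted log2 fold change of the 10 genes with its standard error (bars) in the comparison of states and in the mutant comparisons of either state, filled where the adjusted p was below 0.05. In the comparison of states, 7 genes lie between -2.19 and -0.78, while Hspa1b is the only filled point in either mutant comparison.

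Both cytosolic HSP90 genes were lower in ciliated controls. Hsp90aa1, the stress-inducible HSP90, had 1429.9 ± 98.8, 1917 ± 57.2, 1065 ± 13.9 and 1643 ± 53.1 CPM in the non-ciliated controls AB, Co1, Co2 and Co3 (± SD of 4 libraries, as for all clone values below). The ciliated controls D8, H12, A4 and G7 had 1007 ± 83.0, 485 ± 65.4, 737 ± 119.9 and 612 ± 81.4 CPM. The lowest non-ciliated control, Co2, lay above the highest ciliated control, D8. The fitted difference was -1.09 ± 0.13 on the log2 scale (SE, edgeR adjusted p = 2.15e-08). The constitutive Hsp90ab1 had 5577 ± 433, 6200.0 ± 138, 4157 ± 120.1 and 5871 ± 99.5 CPM in the same order of non-ciliated controls. In D8, H12, A4 and G7 it had 4091 ± 137, 2699 ± 25.9, 3907 ± 368 and 2012 ± 114 CPM, the nearest clones of the states being Co2 and D8. Its log2 fold change of -0.78 ± 0.12 (edgeR adjusted p = 1.5e-06) stands beside that of Hsp90aa1, and the difference between them was not tested. The ratio of Hsp90ab1 to Hsp90aa1 per exon length was 4.80 ± 0.42 in non-ciliated controls (SD, n = 4 clones, range 4.24 to 5.13) and 6.03 ± 1.41 in ciliated controls (4.39 to 7.39), ranges that overlapped. The mutant clones had 1510.2 ± 85.0 and 1355 ± 230.1 CPM of Hsp90aa1 in the non-ciliated Wdr34 and Wdr60 clones, inside the range of their controls. The ciliated Wdr34 clone 1, Wdr34 clone 3 and Wdr60 had 468 ± 9.97, 595 ± 34.3 and 529 ± 85.2 CPM, with Wdr34 clone 1 just below H12, the lowest ciliated control. Hsp90ab1 was at 5962 ± 89.8 and 6122 ± 719 CPM in the non-ciliated and 2982 ± 39.9, 2154 ± 46.1 and 3004 ± 269 CPM in the ciliated mutants, inside the range of the controls of each state.

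Of the HSP70 genes, the constitutive Hspa8 differed between the states and the inducible pair did not pass the test. Hspa8, which encodes HSC70, had 884 ± 92.2, 1377 ± 34.96, 881 ± 49.0 and 1230.5 ± 13.1 CPM in AB, Co1, Co2 and Co3. It had 794 ± 22.5, 437 ± 31.7, 519 ± 58.1 and 262 ± 6.78 CPM in D8, H12, A4 and G7. The mutants had 1196 ± 99.2 and 1027 ± 161 CPM in the non-ciliated Wdr34 and Wdr60 clones and 381 ± 12.01, 347 ± 12.04 and 515 ± 44.4 CPM in the ciliated Wdr34 clone 1, Wdr34 clone 3 and Wdr60. The control groups did not overlap, though D8 came within the library range of AB, and the fitted difference was -1.12 ± 0.16 on the log2 scale (edgeR adjusted p = 5.34e-07). Hspa1b, the more abundant gene of the inducible pair, had 37.8 ± 3.85, 48.9 ± 1.82, 56.8 ± 3.17 and 50.1 ± 2.07 CPM in the non-ciliated controls. In the ciliated controls it had 68.0 ± 4.34, 59.0 ± 5.35, 54.7 ± 15.8 and 31.0 ± 4.69 CPM, so that G7 lay below and D8 and H12 above all non-ciliated controls. Its neighbour Hspa1a had 1.58 ± 0.208, 1.32 ± 0.267, 2.15 ± 0.35 and 2.80 ± 0.23 CPM in AB, Co1, Co2 and Co3 and 4.75 ± 0.971, 2.26 ± 0.431, 2.31 ± 0.772 and 1.02 ± 0.286 CPM in D8, H12, A4 and G7. The log2 fold changes were 0.14 ± 0.13 for Hspa1b (edgeR adjusted p = 0.368) and 0.40 ± 0.24 for Hspa1a (0.157). Both values turned on single clones. Without G7 they rose to 0.33 and 0.66 and passed (adjusted p = 0.00364 and 0.00622), and without D8 they were -0.0014 and -0.072. Per exon length, Hspa8 exceeded Hspa1b by 14.95 ± 3.46 times in non-ciliated controls (range 10.2 to 18.4) and by 6.15 ± 1.19 times in ciliated controls (4.87 to 7.63), ranges that did not overlap. The ciliated Wdr34 clones 1 and 3 had 5.92 and 5.93, but the ciliated Wdr60 clone had 14.9, inside the range of the non-ciliated controls. How often ratios of other genes separate was not determined.

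Hspa1a and Hspa1b are adjacent copies on chromosome 17 (GRCm38.p6, chr17:34969359-34972156 and chr17:34956429-34959238). Of all stretches of 150 bases in their exons, 46.0% and 40.5% occur unchanged in another gene, mostly in each other, so that reads can be split between them and neither level is certain. Over 13 clone means, each centred on its state, they had r = 0.80 (Spearman 0.81, and r = 0.74 without the 2 clones D8 and G7 farthest from the median), a description of clones that share the copies' reads. The counts of Hspa1b exceeded those of Hspa1a by 14.8 to 38.4 times over the 8 control clones. Their RefSeq promoter windows, 250 bases before to 50 bases after the start, differ at 4 of 300 bases, 3 of them before the start. One stretch of 60 bases with a heat shock element pair, GAANNTTC at position -104 relative to the start, is shown because it is letter for letter the same in both genes (chr17:34959309-34959368 for Hspa1b and chr17:34972227-34972286 for Hspa1a, minus strand, motif in capitals):
Hspa1b and Hspa1a: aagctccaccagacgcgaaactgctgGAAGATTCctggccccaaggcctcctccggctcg

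Of the cochaperones of HSP70, Hsph1 was lower in ciliated controls and Dnajb1 did not pass the test. Hsph1, the HSP110 nucleotide exchange factor, showed the largest difference between the states of the 10 genes. It had 481 ± 34.9, 532 ± 17.6, 320.2 ± 3.73 and 419 ± 6.32 CPM in AB, Co1, Co2 and Co3, and 162 ± 7.03, 57.6 ± 6.54, 95.6 ± 21.4 and 67.6 ± 6.56 CPM in D8, H12, A4 and G7. The lowest non-ciliated clone stood well above the highest ciliated one, and the log2 fold change of -2.19 ± 0.17 (edgeR adjusted p = 2.6e-12) corresponds to a 4.57-fold lower level. The non-ciliated mutants (493.32 ± 13.7 and 371 ± 60.96 CPM for Wdr34 and Wdr60) and the ciliated mutants (71.0 ± 2.51, 103 ± 9.53 and 82.1 ± 8.72 CPM for Wdr34 clone 1, Wdr34 clone 3 and Wdr60) fell within the range of the controls of their state. Dnajb1, which encodes the J-domain protein HSP40, had 72.2 ± 5.67, 101 ± 3.204, 124 ± 3.63 and 88.3 ± 3.24 CPM in the non-ciliated controls. In the ciliated controls it had 98.4 ± 2.11, 88.3 ± 6.26, 111 ± 14.7 and 107 ± 13.9 CPM, all inside the non-ciliated range. The log2 fold change was 0.071 ± 0.087 (edgeR adjusted p = 0.493), and it became 0.22 without Co2 (adjusted p = 0.0164) and -0.046 without AB. Co2 had the highest Dnajb1 of all 13 clones while it had the lowest Hsph1 of the non-ciliated clones, and over the 13 state-centred clone means the pair had r = -0.07 (Spearman 0.10, and r = 0.38 without AB and Co2).

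The promoter windows of the cochaperones differ in the letters searched. Hsph1 has 2 windows with different starts, both inside its annotated span (GRCm38.p6, chr5:149616843-149636498). It holds TTCNNGAA at position -33 from the outer and -54 from the inner start, and TTCNNGAANNTTC, which contains both shorter pairs, at positions 37 and 16, past either start. No window of Dnajb1 holds GAANNTTC or TTCNNGAA, which says only that these letters are not in that window. Among all 27025 genes with a window, 17.0% hold GAANNTTC or TTCNNGAA on either strand and 0.662% hold GAANNTTCNNGAA or TTCNNGAANNTTC, while of the 7 genes described here with a window 6 hold the pair and 3 (Hspd1, Hspe1 and Hsph1) the longer form. The 7 are not independent, as Hspd1 and Hspe1 hold the same run in windows that share 285 bases. The windows of Hspa1a and Hspa1b differ at only 4 of 300 bases. The stretch directly before the outer of these Hsph1 starts, which lies inside the annotated span of the gene, is shown for the gene with the largest difference between the states (chr5:149636337-149636396, minus strand, the pair in capitals):
Hsph1: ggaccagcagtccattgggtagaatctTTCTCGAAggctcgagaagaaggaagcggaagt

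Both mitochondrial chaperonin genes were lower in ciliated controls. Hspd1, which encodes HSP60, had 839 ± 102, 1045 ± 18.6, 354 ± 19.8 and 843 ± 29.1 CPM in AB, Co1, Co2 and Co3, with Co2 far below the others. In D8, H12, A4 and G7 it had 314 ± 24.5, 158 ± 7.54, 279.8 ± 32.6 and 143 ± 13.2 CPM, of which D8 came closest to Co2. The log2 fold change was -1.78 ± 0.19 (edgeR adjusted p = 2.24e-09), a 3.44-fold lower level. Hspe1, which encodes the lid protein HSP10, had 111 ± 19.4, 112 ± 3.50, 49.4 ± 3.201 and 90.4 ± 7.95 CPM in the same non-ciliated controls, with Co2 again lowest. The ciliated controls had 39.6 ± 1.84, 27.0 ± 2.55, 33.5 ± 6.15 and 24.1 ± 3.99 CPM, all below Co2. Its log2 fold change was -1.54 ± 0.15 (edgeR adjusted p = 1.34e-10). Per exon length, the ratio of Hspd1 to Hspe1 was 4.68 ± 0.64 in non-ciliated and 3.97 ± 0.74 in ciliated controls (SD, n = 4 clones each), with overlapping ranges of 4.01 to 5.23 and 3.28 to 4.75. Over 13 state-centred clone means the genes had r = 0.93 (Spearman 0.76, and r = 0.74 without G7 and Co2).

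Hspd1 and Hspe1 lie head to head on chromosome 1 (GRCm38.p6, chr1:55077833-55088243 and chr1:55088148-55091317) and a Hspd1 promoter window shares 285 of its 300 bases with that of Hspe1, read on the opposite strand. Their annotated spans overlap, and Hspd1 has another start further out, whose window shares 4 bases with that of Hspe1 and holds none of the letters searched. The shared stretch below is shown because a run of alternating TTC and GAA units lies before the inner Hspd1 start and before the Hspe1 start, inside the annotated span of Hspd1 (chr1:55088038-55088097, RefSeq). It starts at position -144 from that inner start of Hspd1 and at position -89 from the Hspe1 start, lies past the outer start of Hspd1, and holds both TTCNNGAANNTTC and GAANNTTCNNGAA, which overlap. The run is in capitals and each line is read 5′ to 3′ on the strand of its gene:
Hspd1: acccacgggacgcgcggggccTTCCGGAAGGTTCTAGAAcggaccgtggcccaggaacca
Hspe1: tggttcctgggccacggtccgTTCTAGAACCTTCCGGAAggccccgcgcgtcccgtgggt

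Hspb1, the small heat shock protein HSP25, was lower in ciliated controls in the fit over libraries, but its clone means overlapped. It had 395 ± 133, 784 ± 50.6, 574 ± 16.3 and 500.1 ± 43.9 CPM in AB, Co1, Co2 and Co3, where library 1 of AB, at 592 CPM, stood apart from the others of that clone. The ciliated controls D8, H12, A4 and G7 had 543 ± 29.5, 195 ± 16.9, 372 ± 98.2 and 151 ± 8.83 CPM. D8 thus lay above AB and Co3, and H12 and G7 below all non-ciliated controls. A4 lay below AB by its mean, but this order turned without library 1 of each, which stood apart, as the other libraries had 348, 302 and 338 CPM in AB and 362, 459.9 and 429 CPM in A4. The log2 fold change was -0.83 ± 0.21 (edgeR adjusted p = 0.00117), the exact permutation p over clones was 0.114 and with summed clones the adjusted p was 0.191. Leaving out D8 moved the fold change to -1.23 and leaving out G7 to -0.60. Its promoter window holds 2 GAANNTTC pairs at positions -117 and -97 and is shown because Hspb1 spanned 7.30-fold over the clones (GRCm38.p6, chr5:135887776-135887835, plus strand, pairs in capitals):
Hspb1: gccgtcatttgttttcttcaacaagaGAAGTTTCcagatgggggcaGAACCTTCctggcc

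The SD between control clones exceeded the median of all genes for 9 of the 10 genes in ciliated cells and for all 10 in non-ciliated cells. Among ciliated controls, the SD between clones of log2(CPM + 1) was 0.31 (Hspe1) to 0.83 (Hspb1) for 9 of the 10 genes, and 0.14 for Dnajb1, where the median of all genes was 0.28. The SD between the libraries of a clone was 0.08 to 0.28, against a median of 0.16 over all genes. D8 was highest for 9 of the 10 genes, all but Dnajb1, and G7 or H12 lowest for all 10. Hspb1 was 3.57-fold and Hspa8 3.02-fold higher in the highest than in the lowest ciliated control. Among non-ciliated controls the SD between clones was 0.24 (Hspa1b) to 0.69 (Hspd1), with a median of 0.24 over all genes. There, Co1 was highest and Co2 lowest for Hspa8, Hsp90aa1, Hsp90ab1, Hsph1, Hspd1 and Hspe1, and Hspd1 was 2.95-fold higher in Co1 than in Co2. The 10 genes together took 0.764% (Co2) to 1.11% (Co1) of counts in non-ciliated controls and 0.349% (G7) to 0.695% (D8) in ciliated controls, ranges that did not overlap. The ciliated mutants took 0.388% to 0.500%, inside the range of the ciliated controls, and both non-ciliated mutants 1.05%.

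**Figure D3:**
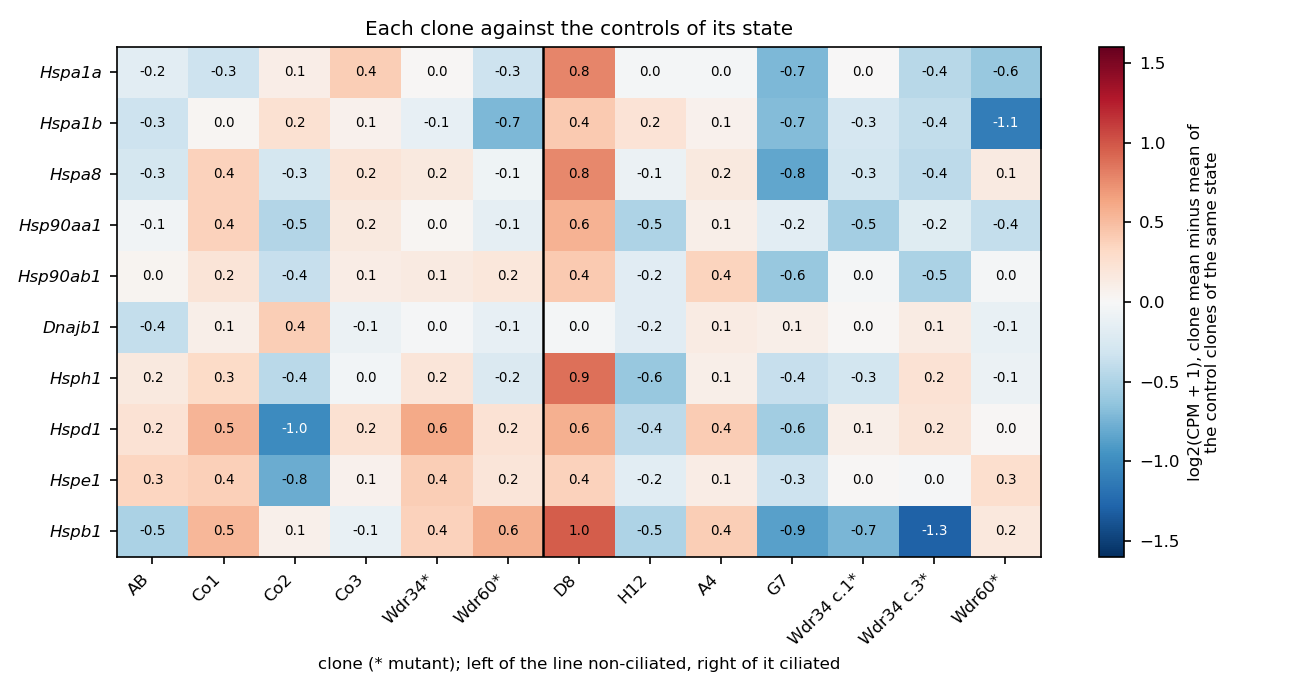
Mean log2(CPM + 1) of each clone (columns, mutants with an asterisk) minus the mean of the 4 control clones of its state for the 10 genes (rows), on a colour scale from -1.6 to 1.6. D8 is red and G7 blue in most rows, Co2 is blue for Hspd1 and Hspe1, and Hspa1b is blue in Wdr60 in either state.

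Once each clone mean was centred on its state, 38 of the 45 pairs of the 10 genes had r above 0 over 13 clones, with a median r of 0.44. The same values for pairs of other genes were not determined, so these are not shown to be particular to the 10 genes. The pair of Hspa1a and Hspa1b also shares reads. Hspa8 had r = 0.89 with the mean of the other 9 genes and Dnajb1 r = -0.17, and the remaining 8 lay between 0.41 (Hspa1b) and 0.81 (Hsp90ab1). Hsp90aa1 and Hsp90ab1 had r = 0.62 (Spearman 0.67, and r = 0.40 without D8 and Co1). Of 12534 genes compared, those most like the mean of the 10 were Gemin5 (r = 0.97), Rrp12, Hilpda, Pprc1 and Eef1e1 (r = 0.96 each). These values share their libraries, depth and scaling between genes and count mutant clones of both states that are, by the study's account, the same (Wdr60 and 1 of the Wdr34 clones), and rest in part on D8 and G7, the clones at either end of the ciliated controls.

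The next comparison asks how missense clones differ from control clones of the same state. In ciliated cells, Hspa1b was lower in the mutants and the other 9 genes did not pass the test. 1 of 10 genes was thus called lower and 0 higher, where 1.59% of the 11950 genes tested were lower and 1.58% higher. Hspa1b had 41.9 ± 0.737, 38.4 ± 3.64 and 23.5 ± 6.45 CPM in Wdr34 clone 1, Wdr34 clone 3 and Wdr60, against 68.0 ± 4.34, 59.0 ± 5.35, 54.7 ± 15.8 and 31.0 ± 4.69 CPM in D8, H12, A4 and G7. All 3 mutants lay below D8, H12 and A4, but Wdr34 clones 1 and 3 lay above G7, so that the groups overlapped. The log2 fold change was -0.63 ± 0.17 (edgeR adjusted p = 0.0399), and the exact permutation p over 3 against 4 clones was 0.143, where 35 splits allow no p below 0.0286. The call was lost without D8 (-0.49, edgeR adjusted p = 0.175), H12 (-0.56, 0.052), A4 (-0.62, 0.0688) or the Wdr60 clone (-0.42, 0.141), and without any 1 of the 4 replicate numbers. It was also lost with the clone as a block in voomLmFit (adjusted p = 0.9999). With each clone summed to 1 sample, 0 of the 10 genes passed even at an unadjusted p below 0.05, where 1.12% of all genes did.

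Among the other 9 genes in ciliated cells, Hspb1 had 167 ± 22.9, 112 ± 4.16 and 311 ± 30.7 CPM in Wdr34 clone 1, Wdr34 clone 3 and Wdr60. Wdr34 clone 3 lay below all controls and Wdr60 between A4 and H12, and the log2 fold change was -0.68 ± 0.27 (edgeR adjusted p = 0.15). Hsp90aa1 had a log2 fold change of -0.43 ± 0.13 (0.0674). Hspa1a had 2.32 ± 0.318, 1.44 ± 0.274 and 1.26 ± 0.671 CPM in the 3 mutants and a log2 fold change of -0.63 ± 0.30 (0.245). The values of Hspa8 (-0.28 ± 0.17), Hsp90ab1 (-0.23 ± 0.13), Hsph1 (-0.17 ± 0.18), Hspe1 (0.074 ± 0.11), Hspd1 (0.019 ± 0.15) and Dnajb1 (-0.0032 ± 0.07) had adjusted p-values from 0.348 to 0.987. Hspd1 was at 225 ± 9.52, 243 ± 14.1 and 213 ± 15.3 CPM, Hspe1 at 30.8 ± 2.18, 29.9 ± 3.53 and 37.7 ± 9.85 CPM and Dnajb1 at 101 ± 4.31, 109.9 ± 5.98 and 93.2 ± 15.9 CPM in the 3 mutants, each inside the range of the controls. The number called depended on single control clones. Without G7, the lowest control for 7 of the genes, 6 genes passed as lower (Hspa1a, Hspa1b, Hspa8, Hsp90aa1, Hsp90ab1 and Hspb1), where 1047 of all 11876 genes tested did in place of 190. Without H12, Hsp90aa1 and Hspb1 passed, beside 854 of 11802 genes. Hspa1b and Hsp90aa1 passed without Wdr34 clone 3, beside 403 of 12062 genes, and without the 4 libraries that stood apart, beside 231 of 11893. Clone means of 0 of the 10 genes were free of overlap, where 0.845% of all genes were separated as lower and 1.12% as higher.

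In non-ciliated cells, Hspa1b was again the only one of the 10 genes called, and lower. This is 1 of 10 lower and 0 higher, where 7.89% of the 12012 genes tested were lower and 7.12% higher. The Wdr34 and Wdr60 clones had 43.5 ± 1.55 and 28.8 ± 1.88 CPM, against 37.8 ± 3.85, 48.9 ± 1.82, 56.8 ± 3.17 and 50.1 ± 2.07 CPM in AB, Co1, Co2 and Co3. The Wdr60 clone lay below all controls and the Wdr34 clone above AB. The log2 fold change was -0.42 ± 0.12 (edgeR adjusted p = 0.0161), and the exact permutation p over 2 against 4 clones was 0.20, where 15 splits allow no p below 0.0667. The call was lost with the clone as a block in voomLmFit (adjusted p = 0.561) and with the libraries of each clone summed (0.976). With 1 mutant clone left, which is then assumed to vary like the controls, values are given without p. Without the Wdr60 clone the value was -0.15 and without the Wdr34 clone -0.75. Without Co2 the value was -0.34 (edgeR adjusted p = 0.0513). Hspb1 had 701 ± 25.9 and 815 ± 132 CPM in Wdr34 and Wdr60, the latter above all controls, and a log2 fold change of 0.43 ± 0.15 (edgeR adjusted p = 0.0512). It passed as higher without Co1 (0.63, 0.00277) and without the 4 libraries that stood apart (0.47, 0.0334). Dnajb1 passed as lower without AB (-0.23, 0.0387). Over all genes, the fit without the 4 libraries called 1637 higher and 1817 lower, in place of 855 and 948. Leave-one-out fits also varied over all genes, within the ranges given in the last section.

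The other non-ciliated values were positive for Hspd1 (0.33 ± 0.20), Hspe1 (0.25 ± 0.17), Hsp90ab1 (0.15 ± 0.083) and Hspa8 (0.026 ± 0.11) and negative for Hspa1a (-0.27 ± 0.21), Dnajb1 (-0.11 ± 0.11), Hsp90aa1 (-0.077 ± 0.12) and Hsph1 (-0.018 ± 0.11), with adjusted p-values from 0.227 to 0.938. Hspd1 had 1088 ± 15 and 845 ± 139 CPM in the Wdr34 and Wdr60 clones, the former above and the latter within the range of the controls. Hspe1 had 114 ± 12.2 and 101 ± 27.7 CPM, Dnajb1 93.0 ± 3.83 and 85.9 ± 2.23 CPM and Hspa1a 1.94 ± 0.362 and 1.32 ± 0.38 CPM in the same clones, where the Wdr60 clone had slightly less Hspa1a than Co1, the lowest control, and the Wdr34 clone slightly more Hspe1 than Co1, the highest. Clone means of all 10 genes overlapped, where 5.99% of all genes were separated as lower and 6.97% as higher. With clones summed, 0 of the 10 genes passed at an unadjusted p below 0.05, where 4.34% of all genes did.

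Whether the mutant effect differed between the states was tested as an interaction over all 52 libraries. 0 of the 10 genes passed in edgeR, where 1.89% of the 12544 genes tested did, and 2 passed at an unadjusted p below 0.05 (Hspb1 and Hsp90ab1), where 14.4% of all genes did. Hspb1 had the largest value, -1.11 ± 0.33 for the ciliated minus the non-ciliated log2 fold change (edgeR adjusted p = 0.065), and was the 1 gene called by DESeq2, which called 326 genes as higher and 107 as lower of 14334. With the clone as a block in voomLmFit, Hspb1 had an adjusted p of 0.99996. Hspa1b, called in both states, had -0.20 ± 0.22 (0.729).

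Each mutant clone was also set against the 4 control clones of its state, where genotype and clone cannot be told apart. The 4 libraries of the mutant are repeats of 1 sample, so that a call here compares libraries and is no test of the genotype. Values of single genes are given without p, and counts of genes called or at an unadjusted p below 0.05 describe libraries only. In the non-ciliated Wdr60 clone, Hspa1b was the 1 gene called of 10, at a fitted log2 fold change of -0.75, where 12% of all genes passed in either direction. In the ciliated Wdr60 clone, Hspa1b was likewise the 1 gene called, at a fitted log2 fold change of -1.18, beside 6.34% of all genes. The libraries of the non-ciliated Wdr60 clone had 26.1, 29.0, 30.4 and 29.7 CPM of Hspa1b, all below the lowest library of any non-ciliated control (34.5 CPM), whereas those of the ciliated Wdr60 clone reached into the range of G7 (26.4 to 35.6 CPM). In Wdr34 clone 3, Hspb1 was the 1 gene called, at a fitted log2 fold change of -1.51, where 20.8% of all genes passed. Its libraries had 108, 114, 108 and 116 CPM, below the 142 CPM of the lowest ciliated control library. 0 of 10 genes were called in Wdr34 clone 1, where 2.2% of all genes passed, and 0 in the non-ciliated Wdr34 clone, where 11.5% did. In Wdr34 clone 1, 2 of the 10 genes, Hsp90aa1 and Hspb1, were at an unadjusted p below 0.05, beside 16.4% of all genes, and in the non-ciliated Wdr34 clone 0 were, beside 28.9%. DESeq2 called 0 of the 10 in both, and over all genes 242 higher and 407 lower of 13990 in Wdr34 clone 1 and 848 and 1186 of 13425 in the non-ciliated Wdr34 clone. For the largest Wdr34 values in these clones, Hspb1 in Wdr34 clone 1 was at a fitted log2 fold change of -0.91 and Hspd1 in the non-ciliated Wdr34 clone at a fitted log2 fold change of 0.51.

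The other chaperone genes were taken from 8 lists of 61 genes. In the comparison of states, 37 of the 59 genes tested were lower in ciliated controls, 7 higher and 15 did not pass, beside 29.7% lower and 31.2% higher of all genes, with a median log2 fold change of -0.35 beside 0.02 over all genes. All 8 subunits of the cytosolic CCT chaperonin, which folds actin and tubulin, were lower (median -0.91), and the clone means of 7 did not overlap, as did those of 12.5% of all genes in that direction. 6 of 8 chaperones of the endoplasmic reticulum were lower and 1 higher (median -0.75), as were 9 and 0 of 13 cochaperones of HSP70 and HSP90 (-0.31) and 5 and 2 of 8 mitochondrial chaperones and proteases (-0.28). Of other HSP70 and HSP110 genes, 3 were lower and 2 higher of 8 (0.03), of J-domain proteins 3 and 1 of 8 (-0.17), of small heat shock proteins 1 and 1 of 4 tested (-0.05), and both heat shock factors tested were lower (-0.38). The shares of 3 in 8 lie near those of all genes. The largest separated differences were those of Chordc1, an HSP90 cochaperone (34.5 ± 7.13 against 85.1 ± 14.1 CPM, log2 fold change -1.30 ± 0.093, edgeR adjusted p = 2.71e-13), Ahsa1, the activator of HSP90 ATPase (92.1 ± 9.39 against 217 ± 32.1 CPM, -1.24 ± 0.079, edgeR adjusted p = 2.06e-14), and Pdia4, a protein disulfide isomerase (104 ± 7.44 against 235 ± 57.5 CPM, -1.18 ± 0.086, edgeR adjusted p = 4.42e-13). They were followed by Cct8 (328 ± 48.0 against 719 ± 119 CPM, -1.13 ± 0.079, edgeR adjusted p = 1.59e-13) and the calcium-binding chaperone gene Calr (544 ± 128 against 1124 ± 86.1 CPM, -1.04 ± 0.085, edgeR adjusted p = 4.21e-12), each in ciliated against non-ciliated controls (SD, n = 4 clones). Relative to these lists, Hsph1, Hspd1 and Hspe1 had larger differences than any listed gene.

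**Figure D4:**
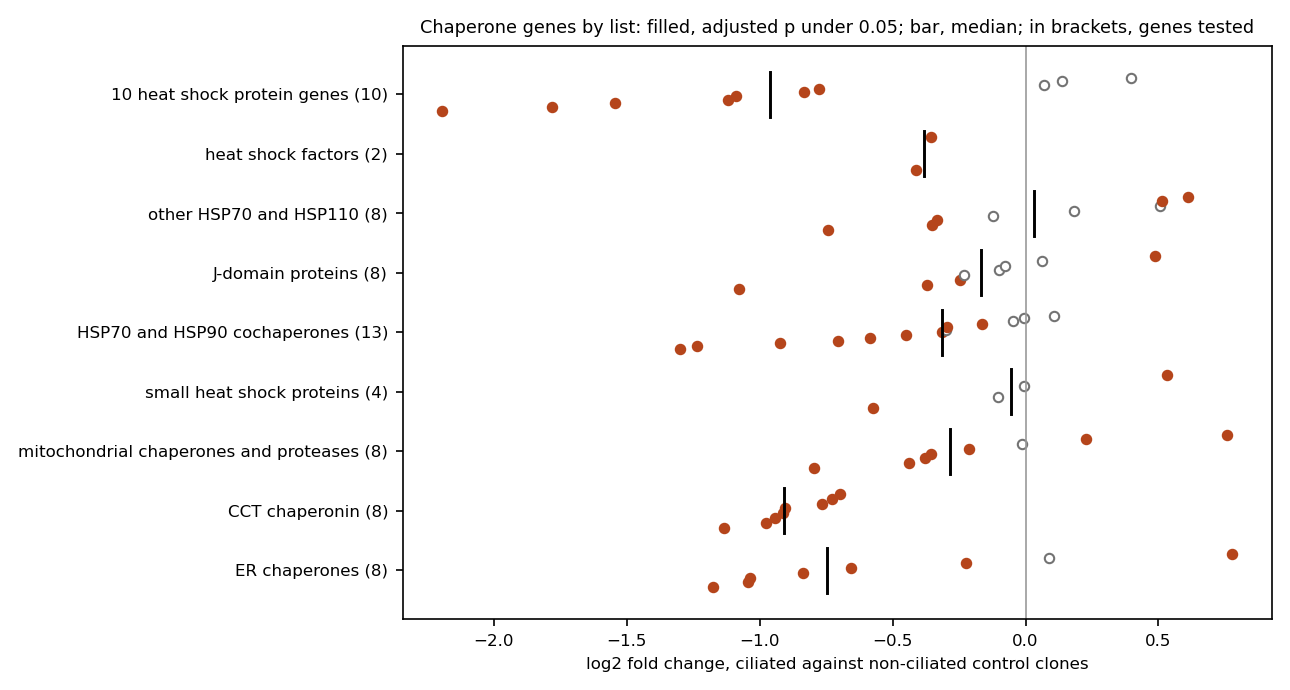
Log2 fold change between ciliated and non-ciliated control clones of the 10 heat shock protein genes and of the genes tested in 8 chaperone lists (points, filled where the adjusted p was below 0.05, with the median as a bar). The 8 CCT subunits form a narrow cluster around -0.91, while the other HSP70 and HSP110 genes lie on both sides of 0.

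In the ciliated mutants, 0 of the 58 listed genes tested passed in edgeR, beside 1.59% lower and 1.58% higher of all genes. At an unadjusted p below 0.05 there were 6, as were 19.2% of all genes. DESeq2 called 1 listed gene, beside 429 higher and 423 lower of all 14453 genes it tested. In the non-ciliated mutants, 6 of 59 were higher and 4 lower, beside 7.12% and 7.89% of all genes. Those with the largest changes and separated clone means were Hspa9, the mitochondrial HSP70 (1669 ± 163 against 1287 ± 135 CPM in mutants against controls, log2 fold change 0.38 ± 0.057, edgeR adjusted p = 0.000132, n = 2 and 4 clones), and the HSP70 cochaperone gene Hspbp1 (68.4 ± 0.00585 against 52.6 ± 6.01 CPM, 0.38 ± 0.13, edgeR adjusted p = 0.043), both higher. Hspb8, a small heat shock protein gene, was lower (3.47 ± 0.713 against 11.2 ± 5.12 CPM, -1.68 ± 0.24, edgeR adjusted p = 7.63e-05). Hspa12a (0.465 ± 0.291 against 3.205 ± 3.55 CPM, adjusted p = 0.00512) and the J-domain gene Dnaja4 (0.0383 ± 0.0314 against 1.21 ± 0.828 CPM, adjusted p = 0.000245) are the other 2 of the 5 by size. Both passed the filter on low counts through the control clones, where they are higher, so that their calls are no support for a difference, and the SD of Hspa12a between control clones exceeded their mean. Exact permutation p-values over clones for these 5 genes ran from 0.0667, the smallest possible, to 0.20. With the libraries of each clone summed, 0 of all 13406 genes tested passed in this comparison, so that each of these calls was lost.

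Reads of several of the genes can also arise from copies elsewhere. Of the 150-base stretches of their transcripts, 39.1% of Hspb1, 28.5% of Hsp90aa1, 23.0% of Hspa8, 16.1% of Hspd1 and 6.64% of Hspe1 occur in another annotated gene, largely pseudogenes, while none of Hsp90ab1, Dnajb1 or Hsph1 do. The treatment of reads with several matches is not stated, so the levels of the former genes carry this uncertainty, and their part in the differences was not tested.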

How the data were processed

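The authors mapped paired reads of 52 libraries to GRCm38/mm10, assigned them to genes with featureCounts and deposited raw counts per gene symbol for each library, and tested differences with DESeq2 1.18.1 in R 3.4.4. Strand and the treatment of multiply matching reads are not given in the sources used here. The 10 genes and the 8 chaperone lists were chosen with earlier results of these data known. Of 24421 symbols, 23204 matched a RefSeq symbol (GRCm38.p6), as did all 10 genes. Promoter windows came from RefSeq, and Hspa8, Hsp90aa1 and Hsp90ab1 had no window to show. Exon lengths, and the transcript stretches searched for copies in other genes, came from the GENCODE annotation. For Hspa8 and Hspa1a these exon lengths exceed the whole RefSeq span of the gene. Levels and ratios per exon length therefore depend on the annotation used.

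The deposited counts were tested in R 4.3.3 with edgeR 4.0.16 (filterByExpr, TMM, quasi-likelihood F-test, 2-sided), with libraries as samples and a Benjamini-Hochberg adjusted p below 0.05 over all genes tested. The standard error is the log2 fold change divided by the square root of F. Clone means of log2(CPM + 1) were compared by exact 2-sided permutation over clones. Nothing in the labels says that the 4 libraries of a clone came from separate cultures. The mean squared difference between any library and the nearest of its clone was at least 2.02 times the counting variance (genes with 20 or more counts in the pair), so that no library matched another within sampling noise. Alternatives were DESeq2 1.42.0, RLE scaling, 2 other filters, summed clones, voomLmFit of edgeR (with limma 3.58.1) with the clone as a block, a replicate block, stricter thresholds, each clone and each replicate number left out, and, chosen after seeing the data, 4 libraries left out. On simulated counts without clone effects the tests found the changed genes, but DESeq2 and voomLmFit made more false calls than the limit first set, which was then raised, and the share of false calls in edgeR was above the nominal level. Of the 8 lists, genes were named when called, with clone means that did not overlap, among the 5 largest changes of a comparison. All 10 genes were named, and the 5 most alike were those with the highest Pearson r of state-centred clone means with the mean of the 10. No gene or library was left out otherwise.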

Additional observations from a re-analysis of the deposited data

Results flagged for a closer look

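In 150 sets of 4 values, the libraries of each clone and the control clones of each state for the 10 genes, 13 had a value whose gap to its neighbour passed Dixon's limit, and chance alone gives about 1 in 20 sets. All 13 were single libraries within a clone. In the non-ciliated control AB, library 1 was high for Hsp90ab1 (6220 CPM, others 5284 to 5436), Dnajb1 (80.7) and Hspb1 (592, others 302 to 348). In the non-ciliated Wdr60 clone, library 1 was high for Hsp90aa1 (1699, others 1221 to 1257) and Hsp90ab1 (7198, others 5694 to 5822). Both libraries are among the 4 that stood apart over all genes. Library 1 of H12 was high for Hsp90aa1 (582) and low for Dnajb1 (78.9), and library 1 of Wdr34 clone 3 was low for Hspd1 (221, others at least 249.3). In Co1, library 4 was high for Hsp90aa1 (2001) and Hsph1 (559), library 1 low for Hsp90ab1 (5994) and library 3 high for Hspe1 (117), each by under 10% of the other libraries. Library 4 of G7, which also stood apart over all genes, was high for Dnajb1 (128, others 98.6 to 102). The cause was not tested.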

How the results depend on the processing

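In the comparison of states, the 7 genes called lower stayed 7 under every setting run except summed clones, which gave 4, and the log2 fold limit of 1, which gave 5. The number called higher ranged from 0 to 2 when a clone or replicate number was left out (Dnajb1 without Co2, beside 3837 of all 11953 genes, and Hspa1a and Hspa1b without G7, beside 3747 of 11968), and values without a clone ran from -0.046 to 0.22 for Dnajb1, -0.072 to 0.66 for Hspa1a and -0.0014 to 0.33 for Hspa1b. In ciliated mutants, the 1 gene called lower became 0 with summed clones, voomLmFit, the replicate block, an adjusted p below 0.01 or a log2 fold change of at least 1, became 2 with DESeq2 or without the 4 libraries that stood apart, and ranged from 0 to 6 in leave-one-out fits. In non-ciliated mutants, 1 lower became 0 with summed clones, voomLmFit and both stricter thresholds and ranged from 0 to 2 in leave-one-out fits, while 0 higher became 1 with DESeq2 (1030 of 13915 genes) and without those 4 libraries and ranged from 0 to 1. The interaction gave 1 gene with DESeq2 in place of 0 (326 higher and 107 lower of 14334 genes), Wdr34 clone 3 gave 2 in place of 1 (1498 higher and 1644 lower of 14924 genes), and the non-ciliated Wdr60 clone gave 0 at the fold limit. None of the causes was tested. No value that changed sign passed the test, before or after. In ciliated mutants, Dnajb1 (-0.0032 in the main fit) was 0.0019 with a filter of 10 counts and 0.016 without the 4 libraries, and Hspd1 -0.017 without those libraries. In non-ciliated mutants, Hspa8 was -0.012 without them. As a difference of clone means in ciliated mutants, Dnajb1 was 0.0057 with TMM and -0.00065 with RLE scaling. In leave-one-out fits of ciliated mutants, the ranges were -0.064 to 0.048 for Dnajb1, -0.49 to 0.020 for Hspa8, -0.14 to 0.22 for Hspd1, -0.044 to 0.21 for Hspe1 and -0.34 to 0.20 for Hsph1, and of non-ciliated mutants -0.23 to 0.033 for Dnajb1, -0.22 to 0.052 for Hsp90aa1, -0.092 to 0.15 for Hspa8 and -0.24 to 0.18 for Hsph1. Over all genes, the 3700 higher and 3521 lower between states became 802 and 962 with summed clones, 1502 and 1600 with voomLmFit and 746 and 473 at the fold limit. In ciliated mutants, 189 and 190 became 429 and 423 with DESeq2, 357 and 224 with a filter of 1 count in any library, 0 and 0 with summed clones, 5 and 2 with voomLmFit, 117 and 119 with the replicate block, 50 and 27 at the fold limit and 59 and 41 at 0.01. In non-ciliated mutants, 855 and 948 became 0 and 0 with summed clones, 0 and 9 with voomLmFit, 59 and 309 at the fold limit, 358 and 337 at 0.01, and 1637 and 1817 without the 4 libraries. Leaving out 1 clone or replicate number gave 32 to 946 higher and 22 to 1047 lower in ciliated mutants and 183 to 1760 higher and 233 to 1932 lower in non-ciliated mutants.

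By the median, libraries of the same number did not deviate together across clones (median correlation -0.0036 to 0.018 in the 3 comparisons, and -0.0099 to 0.00075 for different numbers). Single correlations of the same number ran from -0.595 to 0.792. The numbers were therefore not taken to pair the samples. With the replicate number as a block, Hspa1b in ciliated mutants had -0.62 (edgeR adjusted p = 0.0654), and no other call changed. voomLmFit was not run for single mutant clones, which leave 1 clone in a group. The number of clones, 2 to 4 in a group, limits what can be shown, and Hspa1a, with few counts per library, is the least precise of the 10 genes.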
